A study of Mus musculus with 6 samples.

Results

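Liver sinusoidal endothelial cells line the capillaries of the liver. They differ from other endothelium in having open pores and no continuous basement membrane, and they clear waste molecules from blood through a set of scavenger receptors. Their identity is usually read from genes such as stabilins and C-type lectins, whereas Kdr, Pecam1 and Cdh5 mark endothelial cells of most vessels. The 10 genes described here are the rows of the deposited gene count table named Stab1, Stab2, Lyve1, Clec4g, Oit3, Fcgr2b and Gpr182 (7 sinusoidal genes) and Kdr, Pecam1 and Cdh5 (3 pan-endothelial genes). They are 10 of 41096 rows with a gene name, and all 10 were among the 12468 genes with enough counts to test.

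The data are messenger RNA counts from 6 libraries of mouse liver tissue, 3 from livers without exposure to DEHP and 3 from livers with it. DEHP, di(2-ethylhexyl) phthalate, is a plasticizer. The sources used here give no strain, sex, age, dose or duration, and the exposed columns of the table are headed High. Nothing in the labels ties the libraries to separate animals, so p-values measure only the spread between these libraries, which may be technical. Total counts per library ran from 10410098 to 14229803. The design text speaks of another assay in a human cell line, so groups follow the sample titles. Whole liver was sequenced, so fewer endothelial cells and less RNA per endothelial cell cannot be told apart in any value below.

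All of the endothelial markers were well detected: each of the 10 genes had at least 100 counts in every library. The lowest was 100 counts for Lyve1 in DEHP replicate 2 and the highest 1326 for Stab1 in control replicate 1. Counting error at each gene's lowest count, as the square root of the count, was 4.61% of the value for Stab1 and up to 10% for Lyve1. Levels are given as CPM, library-scaled counts, and as CPM per kilobase of gene length where genes are compared with each other.

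Of the 10 genes, 0 passed an adjusted p of 0.05 (edgeR's quasi-likelihood test, exposed livers against controls, Benjamini-Hochberg adjustment over all 12468 genes), where 0.0722% of all genes did, 0.016% in the lower direction. At an unadjusted p of 0.05, Clec4g, Stab1 and Fcgr2b were lower in exposed livers, 3 of 10, where 6.97% of all genes were lower at that level and 6.11% higher. DESeq2 and limma-voom also called 0 of the 10 at their adjusted p, with 4 each at an unadjusted p of 0.05. Of all 12468 genes, 1676 reached that unadjusted level in either direction with DESeq2 and 1566 with limma-voom. For Clec4g and Stab1 all 3 exposed libraries lay below all 3 controls, 2 of 10, against 8.57% of all genes. The reverse held for 0 of the 10, against 9.17% of all genes. The fitted log2 fold change was negative for 9 of the 10 and positive for Lyve1, where 52.9% of all genes were negative. The median was -0.53 over the 7 sinusoidal genes and -0.50 over the 3 pan-endothelial genes, against -0.03 over all genes tested.

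Promoter sequence is shown for Clec4g and Stab1, the genes whose groups did not overlap, and for Stab2 and Kdr, the pair with the highest correlation over the 6 libraries. Windows of 250 bases before the RefSeq transcript start were available for 5 of the 10 genes on GRCm38.p6: Stab1, Stab2, Clec4g, Fcgr2b and Kdr. Lyve1, Oit3, Gpr182, Pecam1 and Cdh5 had no match. Capitals mark AGGAAG on either strand, a core recognised by ETS factors, the family that includes the endothelial regulators Erg and Fli1.
Clec4g (chr8:3720652-3720901, minus strand): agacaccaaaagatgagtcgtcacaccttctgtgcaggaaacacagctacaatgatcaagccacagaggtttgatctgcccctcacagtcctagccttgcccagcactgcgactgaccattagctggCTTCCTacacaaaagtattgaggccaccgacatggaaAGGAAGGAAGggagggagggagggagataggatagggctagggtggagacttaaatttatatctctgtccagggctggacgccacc
Stab1 (chr14:31168642-31168891, minus strand): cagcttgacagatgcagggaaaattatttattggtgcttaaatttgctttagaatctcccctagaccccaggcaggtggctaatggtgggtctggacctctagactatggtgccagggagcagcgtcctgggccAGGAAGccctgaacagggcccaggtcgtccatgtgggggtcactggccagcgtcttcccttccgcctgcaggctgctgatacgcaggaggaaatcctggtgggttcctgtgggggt
Stab2 (chr10:87007943-87008192, minus strand): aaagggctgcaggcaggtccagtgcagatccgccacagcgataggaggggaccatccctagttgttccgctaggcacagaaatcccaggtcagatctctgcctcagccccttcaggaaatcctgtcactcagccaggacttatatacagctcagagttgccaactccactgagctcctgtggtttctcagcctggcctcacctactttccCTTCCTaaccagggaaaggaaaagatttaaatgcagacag
Kdr (chr5:75978456-75978705, minus strand): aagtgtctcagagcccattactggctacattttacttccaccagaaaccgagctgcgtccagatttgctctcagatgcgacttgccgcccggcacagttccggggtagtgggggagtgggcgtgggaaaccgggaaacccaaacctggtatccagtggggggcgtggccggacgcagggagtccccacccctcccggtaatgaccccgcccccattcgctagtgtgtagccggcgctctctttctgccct
Clec4g held 3 matches, of which a pair overlap, Stab1 and Stab2 held 1 each, and Kdr and Fcgr2b held 0. The motif occurs in 29.5% of all 32851 windows of this length. AGATAA and TGATAA, cores read by GATA factors such as Gata4, were found on either strand in 0 of the 5 windows, and 16.6% of all windows hold at least 1 of them. A match is only a run of letters, and no match says only that those letters are not in this window.

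Clec4g encodes a C-type lectin of the sinusoidal surface and had the highest level per length of the group. By the deposited table, whose identifiers belong to the C57BL/6NJ strain annotation, it lies on chromosome 8 from 702935 to 716691 and is protein-coding. It stood at 70.0, 69.9 and 67.8 CPM in control replicates 1 to 3 and at 42.7, 20.3 and 53.3 CPM in exposed replicates 1 to 3. The controls were nearly level, all exposed libraries were below them, and the exposed libraries spread over 2.62-fold. Means were 69.2 ± 1.25 and 38.8 ± 16.8 CPM (SD, n = 3). The fitted log2 fold change was -0.84 ± 0.29 (SE, edgeR adjusted p = 0.281), with a 95% interval from -1.46 to -0.21. Without DEHP replicate 2 it was -0.52. With no low-count filter, over 20576 genes, its adjusted p was 0.0150, and it was the single member called in any of the alternative fits.

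Stab1 and Stab2 encode the stabilins, large scavenger receptors that take up modified lipoproteins and, for stabilin-2, hyaluronan. Stab1 lies on chromosome 14 from 25281471 to 25311919 and Stab2 on chromosome 10 from 90797939 to 90984877, both protein-coding. Stab1 had 94.0, 81.4 and 86.1 CPM in controls and 75.7, 41.0 and 64.2 CPM in exposed livers. All exposed libraries were below all controls, with DEHP replicate 2 lowest. Its log2 fold change was -0.53 ± 0.22 (adjusted p = 0.350, 95% interval -1.01 to -0.05), and -0.31 without DEHP replicate 2.

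Stab2 had 44.8, 39.0 and 54.6 CPM in controls and 36.8, 33.1 and 50.5 CPM in exposed livers. The groups overlapped, because DEHP replicate 3 exceeded control replicates 1 and 2. The log2 fold change was -0.20 ± 0.22 (adjusted p = 0.734, 95% interval -0.66 to 0.26), an interval that holds both no change and values close to that of Stab1. Single libraries moved the Stab2 value, to -0.04 without control replicate 3, -0.07 without DEHP replicate 2, -0.12 without DEHP replicate 1, -0.31 without control replicate 2 and -0.40 without DEHP replicate 3. Whether the stabilins differed in their change was not tested.

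Lyve1 encodes a hyaluronan receptor of sinusoidal and lymphatic endothelium and lies on chromosome 7 from 119087022 to 119099639. It had 8.43, 9.48 and 17.2 CPM in controls and 12.4, 8.72 and 21.0 CPM in exposed livers. Replicate 3 lay far above the other pair in each group, and the groups overlapped. The log2 fold change was 0.27 ± 0.36 (adjusted p = 0.798, 95% interval -0.51 to 1.04). Its sign turned without DEHP replicate 3 (-0.15, adjusted p = 0.931), and the value was 0.08, 0.14 and 0.67 without control replicates 1, 2 and 3 and 0.53 without DEHP replicate 2, so no direction can be given for Lyve1.

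Fcgr2b encodes the inhibitory Fc gamma receptor, which in liver clears immune complexes from blood and is also made by B cells and macrophages. It had 51.7, 53.5 and 77.3 CPM in controls and 42.0, 32.5 and 51.8 CPM in exposed livers. DEHP replicate 3 lay just above control replicate 1, so the groups overlapped by a narrow margin. The log2 fold change was -0.53 ± 0.23 (adjusted p = 0.355, 95% interval -1.02 to -0.04), and -0.30 without control replicate 3.

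Gpr182, an atypical receptor that binds chemokines, had 28.6, 37.5 and 57 CPM in controls and 26.5, 15.5 and 34.7 CPM in exposed livers. Its controls already spread over 1.99-fold, and the groups overlapped. The log2 fold change was -0.68 ± 0.32 (adjusted p = 0.393, 95% interval -1.38 to 0.02), and -0.35 without control replicate 3 or -0.41 without DEHP replicate 2. Oit3, a secreted protein with a zona pellucida domain, had 18.4, 28.1 and 38.3 CPM in controls and 24.5, 12.6 and 31.3 CPM in exposed livers. Its spread within controls, 2.09-fold, was larger than the difference between group means, and the log2 fold change was -0.31 ± 0.35 (adjusted p = 0.752, 95% interval -1.07 to 0.46). The Oit3 value was close to 0 without control replicate 3 (-0.0059) and without DEHP replicate 2 (-0.0029). It was larger in size with control replicate 1 left out (-0.54) and with DEHP replicate 3 left out (-0.61).

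**Figure D1:**
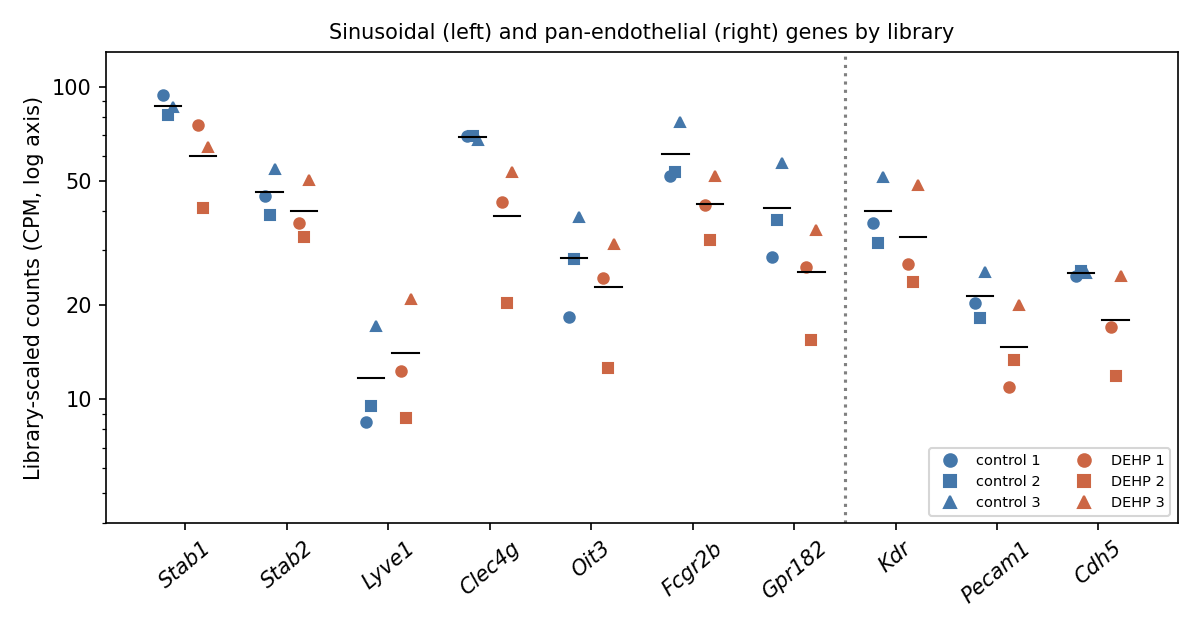
Level of each gene in each library, as CPM on a log axis, with controls in blue and exposed libraries in orange, the replicate number as the marker shape, and group means as black bars (n = 3). Clec4g and Stab1 are the genes whose groups do not overlap, and DEHP replicate 2 is the lowest of all 6 for 8 of the 10 genes.

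The pan-endothelial genes gave values in the same range as the sinusoidal genes. Kdr, the main signalling receptor for the growth factor VEGF, lies on chromosome 5 from 79160881 to 79210489 and had 36.7, 31.7 and 51.5 CPM in controls and 27.0, 23.8 and 48.4 CPM in exposed livers. Replicate 3 was highest in each group and the groups overlapped (fitted log2 fold change -0.27 ± 0.28, adjusted p = 0.727, 95% interval -0.88 to 0.34). Leaving out single libraries took the Kdr value to -0.03 (control replicate 3), -0.07 (DEHP replicate 2), -0.13 (DEHP replicate 1), -0.41 (control replicate 2) and -0.65 (DEHP replicate 3).

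Pecam1, the junction molecule CD31, which platelets and leukocytes also carry, had 20.3, 18.3 and 25.6 CPM in controls and 10.9, 13.3 and 20 CPM in exposed livers. Only DEHP replicate 3 reached into the range of the controls (log2 fold change -0.53 ± 0.26, adjusted p = 0.402, 95% interval -1.09 to 0.02). Its value was -0.34 without DEHP replicate 1 and -0.81 without DEHP replicate 3. Cdh5, the endothelial cadherin, had 24.8, 25.8 and 25.4 CPM in controls and 17, 11.9 and 24.9 CPM in exposed livers. Its controls were nearly as level as those of Clec4g, and here again DEHP replicate 3 alone overlapped them (log2 fold change -0.50 ± 0.26, adjusted p = 0.426, 95% interval -1.05 to 0.05). For Cdh5 the value was -0.26 without DEHP replicate 2 and -0.81 without DEHP replicate 3.

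**Figure D2:**
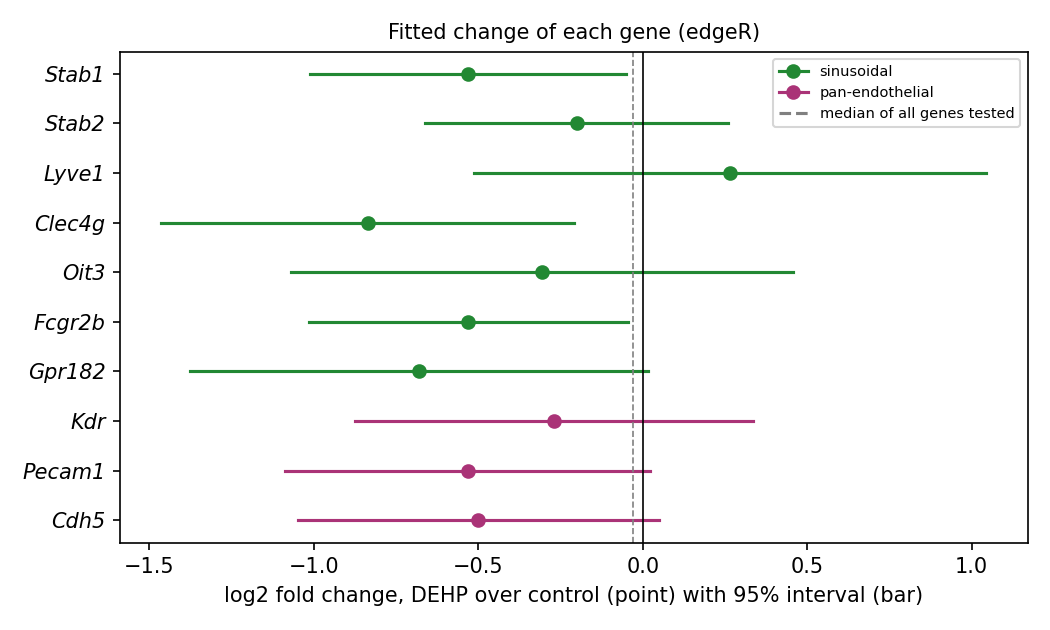
Fitted log2 fold change of exposed over control livers for each gene (point) with its 95% interval (bar), the sinusoidal genes in green and the pan-endothelial genes in purple. The dashed line is the median of all 12468 genes tested, at -0.03. The intervals of the pan-endothelial genes lie within the span of those of the sinusoidal genes, and Lyve1 alone has a point above 0.

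Per kilobase of gene length, the order in controls was led by Clec4g, at 28.1 ± 0.506 CPM per kilobase (SD, n = 3). Fcgr2b, Gpr182, Oit3 and Stab1 followed at 10.8, 10.4, 10.1 and 8.47, each within the spread of its neighbour, then Cdh5 at 6.36 and Stab2 at 5.27. Lyve1, Kdr and Pecam1 closed the order at 4.49, 4.43 and 3.51 CPM per kilobase, and from Stab2 downward no neighbours differed by more than the larger of their SDs. In exposed livers Clec4g still led, at 15.7 ± 6.83 CPM per kilobase, and Pecam1 was again last, at 2.42 ± 0.768. Between the second and the last place of that order no neighbours differed by more than their spread.

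The libraries of a group differed in the level of the whole gene group. DEHP replicate 2 was the lowest of all 6 libraries for 8 of the 10 genes, the exceptions being Lyve1 and Pecam1. Control replicate 3 was the highest of all 6 for 6 genes, and DEHP replicate 3 the highest of the exposed libraries for 9, the exception being Stab1. The fold between DEHP replicates 3 and 2 ran from 1.5 for Pecam1 to 2.62 for Clec4g. Summed over the 7 sinusoidal genes, the level was 316, 319 and 398 CPM in controls and 261, 164 and 307 CPM in exposed livers. Every exposed library was below every control in that sum, by a small margin for DEHP replicate 3. The pan-endothelial sum was 81.8, 75.8 and 103 CPM in controls and 55.0, 49.0 and 93.3 CPM in exposed livers, and its groups overlapped. No test was made of these sums.

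Whether sinusoidal genes moved apart from general endothelial genes was asked within each library, where scaling between libraries plays no part. Counts of the 7 sinusoidal genes were 3.86, 4.21 and 3.88 times those of the 3 pan-endothelial genes in controls, and 4.74, 3.34 and 3.29 times in exposed livers. Means were 3.98 ± 0.194 and 3.79 ± 0.824 (SD, n = 3), and the exposed libraries lay on both sides of the controls. As mean log2 CPM of the sinusoidal genes minus that of the pan-endothelial genes, the level was 0.57 ± 0.14 in controls and 0.61 ± 0.28 in exposed livers. The difference of 0.04 was smaller than the spread between replicates, 0.22 as the pooled SD, and its sign turned with the way members were combined (-0.09 from summed CPM). Leaving out control replicate 3 took the median of the sinusoidal genes from -0.53 to -0.30, and leaving out DEHP replicate 2 took it to -0.31. The pan-endothelial median, -0.50, was -0.26 without DEHP replicate 2 and -0.81 without DEHP replicate 3.

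For single sinusoidal genes the same ratio was taken to the summed pan-endothelial counts, and the groups did not overlap for 1 of 7, Lyve1. Relative to the pan-endothelial counts, Lyve1 stood at 0.103, 0.125 and 0.168 in controls and 0.225, 0.178 and 0.225 in exposed livers. All exposed libraries lay above all controls, which was true of 12.7% of all genes for this ratio, while 0.81% had all exposed libraries below all controls. The ratio for Clec4g was 0.855, 0.923 and 0.661 among control libraries and 0.777, 0.415 and 0.571 in exposed livers. DEHP replicate 1 lay within the controls for Clec4g, so these groups overlapped. Stab2 lay between 0.514 and 0.548 in controls and between 0.541 and 0.674 in exposed livers. Lyve1 per Clec4g count was 0.121, 0.136 and 0.254 for controls and 0.289, 0.429 and 0.394 for exposed livers, without overlap. In their ratio to Clec4g, 48% of all genes were higher without overlap and 0.225% lower, so a value of this kind is not particular to Lyve1.

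**Figure D3:**
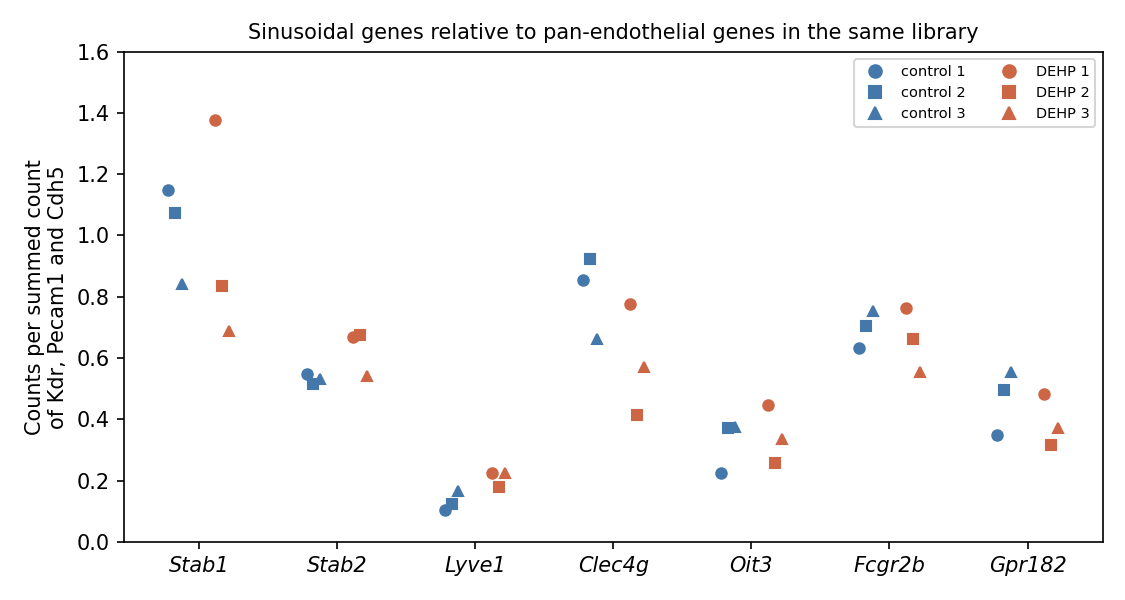
Counts of each sinusoidal gene divided by the summed counts of Kdr, Pecam1 and Cdh5 in the same library, on a linear axis, with controls in blue and exposed libraries in orange and the replicate number as the marker shape. Lyve1 is the single gene whose groups do not overlap, with controls from 0.103 to 0.168 and exposed libraries from 0.178 to 0.225.

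Across the 6 libraries all 45 pairs of the 10 genes were positively correlated in log2 CPM, with a median Pearson correlation of 0.764. Correlations are given as a description, since the libraries share depth, scaling and group. The highest was 0.993 for Stab2 and Kdr, and the lowest 0.103 for Stab1 and Lyve1. Clec4g went most closely with Cdh5 (0.969) and Stab1 (0.937). Against the mean profile of the sinusoidal genes, Gpr182 had 0.979 and Lyve1 0.641. Both genes are part of that mean, which raises these values. Outside the gene lists used here, the 8 named genes with a mean of at least 5 CPM whose profile was most like that mean were Tmem86b, Hspg2, Cntfr, Crb3, Tinagl1, Filip1l, Itpkb and Smtn, with correlations from 0.969 to 0.986. Of all 9168 tested genes at that level, with members and listed genes included, 96 had a correlation above 0.9. Tmem86b had the highest, and stood at 81.1 ± 6.17 CPM in controls and 67.0 ± 14.7 CPM in exposed livers (fitted log2 change -0.28 ± 0.20, adjusted p = 0.604).

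Other genes of sinusoidal endothelium gave values like those of the members. Of 11 listed, 10 were tested, 0 passed over all genes (edgeR, 3 lower and 0 higher at an unadjusted p of 0.05), 9 were negative, and the median was -0.39. Over all genes, 6.97% were lower at that unadjusted level and 8.57% were lower without overlap. The most abundant were Ehd3, a membrane trafficking protein, at -0.67 ± 0.34 (adjusted p = 0.436), and Dnase1l3, a secreted nuclease. Dnase1l3 had 57.7, 66.9 and 59.5 CPM in controls and 32.7, 23.7 and 42.6 CPM in exposed livers, with no overlap (-0.89 ± 0.22, adjusted p = 0.166). Maf and Plxnc1 were the others at that unadjusted level, also without overlap, and were chosen with their values in view. Maf, a transcription factor of sinusoidal identity, had -0.43 ± 0.18 (adjusted p = 0.344), and Gata4, another, 0.24 ± 0.28 (adjusted p = 0.752). Mrc1, the mannose and collagen receptor, had -0.19 ± 0.18 (adjusted p = 0.711).

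Of 18 other pan-endothelial genes, all tested, 0 passed over all genes (edgeR, 0 in either direction at an unadjusted p of 0.05), 14 were negative, and the median was -0.27. Eng, endoglin, had -0.23 ± 0.29 (adjusted p = 0.786) and Ptprb, an endothelial phosphatase, -0.04 ± 0.27 (adjusted p = 0.969). Among 12 genes more typical of larger vessels, 10 were tested and edgeR called 0, with a median of -0.53. At an unadjusted p of 0.05, 4 of these were lower, where 6.97% of all genes were. The most abundant were Plvap, the diaphragm protein of endothelial pores (-0.88 ± 0.24, adjusted p = 0.180), and Ly6a, the surface antigen Sca-1 (-3.22 ± 1.13, adjusted p = 0.369). Ly6a had 89.8 and 83.5 CPM in control replicates 1 and 2 and 6.65 in control replicate 3, against 3.75 to 10.4 in exposed livers. Without Ly6a the list summed to 125, 122 and 153 CPM in controls and 99.2, 68.6 and 101 CPM in exposed livers, without overlap.

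In the VEGF and angiopoietin pathway, which maintains endothelium, 4 of the 7 listed ligands and all 7 receptors were tested and 0 passed (edgeR, 0 at an unadjusted p of 0.05 in either direction). The ligand median was 0.12 and the receptor median -0.35, and Vegfa has no row under its symbol. The receptors include Kdr. Nrp1, a coreceptor and the most abundant of them, stood at 122, 116 and 110 CPM in controls and 99.5, 91.7 and 111 CPM in exposed livers (-0.20 ± 0.18, adjusted p = 0.678). Vegfb, the most abundant ligand tested, had 0.10 ± 0.28 (adjusted p = 0.915). Of 8 Wnt and BMP pathway and central vein endothelial genes, 0 passed (edgeR, 0 at an unadjusted p of 0.05) and the median was -0.36. Among these, Bmp2 and Bmp6, endothelial ligands that induce hepcidin in hepatocytes, had -0.40 ± 0.24 (adjusted p = 0.506) and -0.32 ± 0.49 (adjusted p = 0.825), and Rspo3, the Wnt enhancer of the central vein, -0.07 ± 0.37 (adjusted p = 0.960). Wnt2 had -0.11 ± 0.48 (adjusted p = 0.948). Wnt9b had the largest change of the list, -1.46 ± 0.74 (adjusted p = 0.419), at low levels. It stood at 1.98, 3.64 and 2.22 CPM in controls and 0.41, 0.26 and 2.12 CPM in exposed livers.

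Of 5 tested genes of portal side endothelium, 3 of lymphatic endothelium and 6 that handle hyaluronan and collagen, 0 passed (edgeR, 1, 0 and 0 lower and 0 higher at an unadjusted p of 0.05). Their medians were -0.21, 0.29 and -0.24. Msr1 was the portal side gene at that unadjusted level, where 6.97% of all genes were lower. Among lymphatic genes, Prox1, which hepatocytes also express, was the most abundant, at 0.29 ± 0.25 (adjusted p = 0.661), and Pdpn, a defining marker, was at 0 in 4 of the 6 libraries. Hyal2, a hyaluronidase and the most abundant gene of hyaluronan handling, had 0.07 ± 0.19 (adjusted p = 0.921).

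Markers of other cell types moved between libraries too, and their part in the members' values was not tested. Over all genes, 6.97% were lower at an unadjusted p of 0.05 (edgeR). For stellate cells, the pericytes of the sinusoid, 10 of 10 markers were tested, 5 were lower at that level and 0 passed. The stellate sum was 374 to 557 CPM in controls and 246 to 301 CPM in exposed livers, without overlap, and no marker was at 0. For Kupffer cells, the resident macrophages, 11 of 11 were tested, 5 were lower at that level and 0 passed. Their sum was 871 and 800 CPM in control replicates 1 and 2, 257 in control replicate 3, and 273 to 397 CPM in exposed livers. Interferon-stimulated genes split in the same way, at 3794 and 2893 CPM in control replicates 1 and 2 against 348 CPM in control replicate 3 and 303 to 374 CPM in exposed livers. Of these, 15 of 18 were tested, 14 were lower at that level, edgeR called 0, and the median was -3.28.

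Among the 10 members, control replicate 3 was the highest control for 7. Control replicate 3 alone was fitted against the exposed livers, added with the data in view and assuming that the lone control varies like the rest. The sinusoidal median was then -0.74 and the pan-endothelial median -0.63. The list for the Fc gamma receptor family had 6 genes, all tested, and counts in Fcer1g and Fcgrt beside the receptors named Fcgr. Of these 6, edgeR called 0, with 2 lower at an unadjusted p of 0.05 (Fcer1g and Fcgr2b) and a median of -0.76. Fcgrt made up most of the list's sum, at 258 ± 19.1 CPM in controls and 244 ± 27.2 CPM in exposed livers (SD, n = 3). Fcgr1, an activating receptor of macrophages, had 20.2, 16.3 and 1.24 CPM in controls and 1.32, 4.62 and 3.74 CPM in exposed livers. Fcgr4, another activating receptor, had 12.2, 25.5 and 1.77 CPM in controls and 3.14, 5.23 and 6.03 CPM in exposed livers. Fcgr2b was highest in control replicate 3, the library where Fcgr1 and Fcgr4 were low. Fcgr3 and Fcer1g were also lowest among controls in control replicate 3. Control replicates 1 to 3 had 8.86, 11.5 and 6.82 CPM for Fcgr3 and 19.7, 20.5 and 9.30 CPM for Fcer1g. Fcgrt, the most abundant, was highest in control replicate 3, at 280 CPM against 248 and 246 CPM in control replicates 1 and 2. Which cells the Fcgr2b counts came from was not tested.

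B cell markers summed to 2.29 to 6.59 CPM in controls and 2.53 to 9.09 in exposed livers, with 3 of 6 tested and Ms4a1 and Pax5 at 0 in some libraries. T cell and NK cell markers summed to at most 1.98 CPM in controls and 5.35 in exposed livers, with 0 of 6 tested. Platelet markers, of which 2 of 5 were tested, summed to 9.64 to 14.0 CPM in controls and 3.82 to 9.32 in exposed livers, and Gp1bb was at 0 in 5 libraries. Of the 2 tested, 1 was lower at an unadjusted p of 0.05 (edgeR), where 6.97% of all genes were. Pecam1 alone had 18.3 to 25.6 CPM in controls. Hepatocyte markers, 7 tested of 8, had a median of -0.12 with 0 called, and values from -0.69 to 0.25. At an unadjusted p of 0.05 (edgeR), 1 was lower and 0 higher. For 1 marker all exposed libraries lay above all controls, against 9.17% of all genes. Alb, serum albumin, had -0.10 ± 0.24 (adjusted p = 0.901). Cholangiocyte markers, all 5 tested, had a median of -0.33 with 0 called.

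The summed level also lay lower in all exposed libraries for portal side endothelial genes (49.7 to 54.3 CPM in controls, 35.2 to 45.7 CPM in exposed livers), the Fc gamma receptor family (360 to 376 and 274 to 331 CPM) and the platelet markers above. The portal side sum holds Msr1, at 15.3, 19.0 and 4.52 CPM in controls and 3.04, 7.15 and 4.42 CPM in exposed livers. The log2 fold change of Msr1 was -1.41 ± 0.50 (edgeR adjusted p = 0.299), against -0.33 for Dll4, -0.21 for Efnb1, -0.02 for Adam23 and 0.15 for Efnb2. The lower portal side sum therefore cannot be read as a change that these genes share. The Fc gamma receptor list includes the member Fcgr2b. The stellate and platelet lists hold none of the members and also separated, so separation of a list's sum is not particular to endothelial genes.

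**Figure D4:**
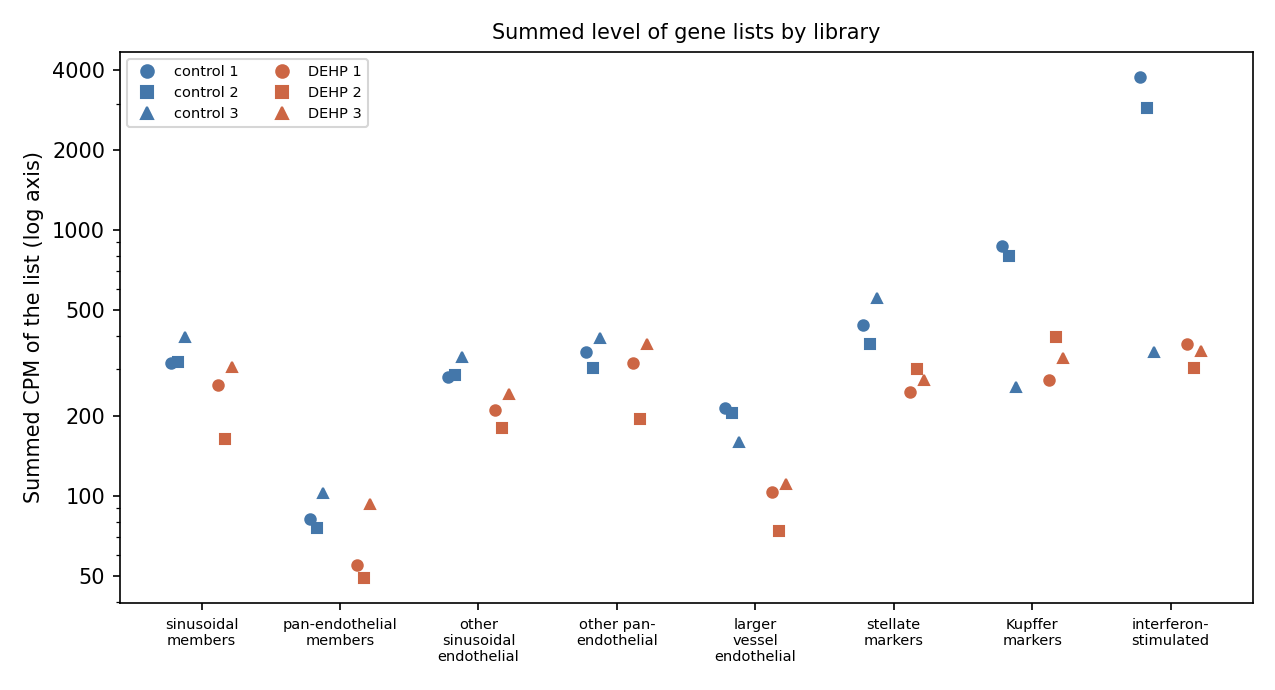
Summed CPM of a selection of the gene lists in each library, on a log axis, with controls in blue and exposed libraries in orange and the replicate number as the marker shape. Among the lists plotted, the sinusoidal members, other sinusoidal genes, larger vessel genes and stellate markers show no overlap between groups, while Kupffer cell markers and interferon-stimulated genes separate control replicates 1 and 2 from the other 4 libraries.

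For 5 of the 10 members another row with a gene name overlaps the gene on the opposite strand. Loci without a gene name were not searched for overlaps. No source used here says whether counting used strand, so reads of such pairs cannot be told apart. Antisense and pseudogene rows over Stab2, Clec4g and Fcgr2b had at most 6 counts in any library. Nt5dc2, which overlaps Stab1, had 64 to 107 counts, against at least 470 for Stab1, and Zbtb39, which overlaps Gpr182, had 94 to 177, against at least 178 for Gpr182. Values of Gpr182 and Stab1 are uncertain to that extent.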

How the data were processed

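RNA was measured as polyadenylated transcripts in 6 mouse liver libraries, 3 per group, with groups and replicate numbers taken from the sample titles. The authors deposited raw counts, whole numbers of reads for each gene, in a single table with a column per library and a column of gene length. The kit marks strand, per the labels' protocols; the submitters' processing notes name the build GRCm38.p6, while the gene identifiers in the file are those of the C57BL/6NJ annotation. Aligner, counting program and strand setting: not given in the sources used here. Gene coordinates are printed as the table has them and promoter windows on GRCm38.p6, and the 2 were not combined.

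The test was edgeR 4.0.16 under R 4.3.3 (low-count filter filterByExpr at a minimum count of 10, TMM scaling, robust quasi-likelihood test, two-sided, no covariate, Benjamini-Hochberg adjustment over 12468 genes, threshold 0.05). Loci without a gene name, 2.73% to 4.28% of counts, stayed out. Standard errors are the fold change over the square root of F. CPM use the TMM-scaled library size, and log2 CPM use a prior count of 2. DESeq2 1.42.0, limma-voom (limma 3.58.1), other scaling and filters, a replicate block and each library left out were alternatives. No pair of replicates agreed within counting noise (chi-square over its degrees of freedom was 31.1 or more), so none was treated as a library deposited more than once; this does not show that they are separate animals. Total counts per library were 10410098 to 14229803, and intervals cover the spread between 3 libraries a group.

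The members and the gene lists were chosen with earlier results of these data known. All 10 members are named; from other lists the rule named up to 4 genes past the threshold, otherwise the 2 most abundant tested, and not every gene it names is reported. Genes named outside it (Maf, Gata4, Mrc1, Plxnc1, Rspo3, Bmp6, Wnt2, Wnt9b, Msr1, Dll4, Efnb2, Pdpn and the Fc receptors among them) were chosen with their values in view. Ltbp4 has 2 rows and was left out; Vegfa, Ccl21a, Ntn4, Cemip2, Tf and Ifit3 have no row under their symbols.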

Additional observations from a re-analysis of the deposited data

How the results depend on the processing

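No member passed the threshold in 14 of the 15 alternative fits; with no low-count filter Clec4g did (1 of 10 called, adjusted p = 0.0150). Its adjusted p ran from 0.0150 to 0.988 over the alternatives. Of 150 member values in these fits, 148 kept their direction, but sizes did not hold: without control replicate 3 or DEHP replicate 2, Stab2, Oit3 and Kdr lay near 0. The exceptions in direction were both Lyve1, at -0.15 without DEHP replicate 3 and -0.28 with control replicates 1 and 2 left out; with a single library left out it ran from -0.15 to 0.67. The number of genes called over the whole table, 9, was 272 with DESeq2, 496 with no filter (20576 genes tested) and 0 with control replicates 1 and 2 left out (edgeR, 642 at an unadjusted p of 0.05). It ran from 5 to 400 with a single library left out, the highest without control replicate 3; the cause was not tested. Over all genes tested, same-numbered libraries had deviations from their group means correlated at -0.021, 0.057 and -0.028. Such values cannot show whether the replicate numbers carry a pairing. Among the members, replicate 3 was the highest of its group for 7 genes in controls and 9 in exposed livers. The replicate block called 6 genes and 0 members. At an unadjusted p of 0.05 (edgeR) it had 6 of the 10 members and 1701 of 12468 genes. The fit without a block had 3 members and 1631 genes. The difference between sinusoidal and pan-endothelial levels, 0.04, ran from -0.12 to 0.15 with a single library left out. Counting error was up to 10% at the members' lowest counts, and 3 libraries a group limit the precision further.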
